A study of Mus musculus with 6 samples.

Results

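The genes described here encode the subunits of the 4 respiratory chain complexes and of ATP synthase, which together carry out oxidative phosphorylation. They were chosen by symbol: protein-coding rows named Nduf (A, B, C, S or V series), Sdha to Sdhd, Uqcr, Cox4 to Cox8, Atp5, or mt-Nd, mt-Co, mt-Cytb or mt-Atp, with Ndufa4l2 left out. This gave 89 of the 21785 genes in the table, of which 81 are encoded in the nucleus and 8 in the mitochondrial genome. By complex, the nuclear genes comprise 36 of complex I, 4 of complex II, 8 of complex III, 16 of complex IV and 17 of ATP synthase. The rule itself uses symbols and no measured values, but it was set with earlier results of these data known.

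Complexes I and II pass electrons from NADH and succinate to ubiquinone, complex III passes them on to cytochrome c, and complex IV passes them to oxygen. The proton gradient built by complexes I, III and IV drives ATP synthase. Most subunits are made in the cytosol and imported, while a few core subunits are made inside the organelle from mitochondrial DNA, so each complex other than II draws on 2 genomes. In pulmonary arteries, mitochondria are also discussed as part of oxygen sensing, and smooth muscle there carries some tissue-specific subunits such as COX4I2.

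Pulmonary artery smooth muscle cells (PASMCs) of C57BL/6 mice were grown out from vessels that had been filled with iron particles and collected with a magnet. Both groups were kept for 48 h in medium without supplements. The 3 stimulated samples then received the bone morphogenetic proteins BMP9 (1 ng/mL) and BMP10 (5 ng/mL) for 6 h, and the 3 controls received neither. Total RNA was sequenced as stranded whole-transcriptome libraries. Nothing in the labels tells separate animals or cultures apart, so a p-value here reflects the spread among these 6 libraries alone, which may be technical.

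Values are normalized read counts: reads per gene multiplied by 1 factor per library and rounded, summing to 27295973 to 31903795 per library. Markers of other cells were present in every library, and no marker was listed at 0 in any of them. The 8 endothelial markers summed to 10371 to 37595 in controls and 8493 to 37954 in stimulated libraries, with replicate 2 highest in both groups; the same held for the summed epithelial, mesothelial, fibroblast and smooth muscle markers. The 6 macrophage markers summed to 89579 to 154066 and 133392 to 200555. The 7 epithelial markers summed to 7914 to 35047 and 3220 to 36173. The 7 smooth muscle markers, which include Acta2 (actin of smooth muscle), summed to 34352 to 53228 in controls and 83778 to 178920 after stimulation. The sum of the 6 pericyte markers also separated by group, at 18674 to 19741 and 30575 to 34742. Of the 6, 2 rose, Pdgfrb and Cspg4, while 2 had log2 estimates below 0, the lowest at -0.99. The 3 mesothelial markers summed to 449 to 1870 and 156 to 1233. The 6 fibroblast markers summed to 147342 to 222722 and 136292 to 268953, and 1 of them, Pdgfra, fell. What part these cells have in the values below was not tested. In bulk RNA, fewer cells of a type and less RNA per cell cannot be told apart.

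Sequence bears on what can be counted for these genes, so 3 stretches are shown first. NRF1, the ETS factor GABPA and YY1 are factors known to bind promoters of respiratory chain genes, and motifs searched for on both strands were GCGCATGC for NRF1, CCGGAAGT for GABPA and AAGATGGCG for YY1. Below are the exon-free upstream bases, with the motif in capitals, of the member with the highest control level per kb of exon in which at least 60 such bases surround an NRF1 or a GABPA match; no YY1 match met that condition. Cox6a1 encodes a complex IV subunit and lies at chr5:115348982-115349129 on the minus strand; its capitals hold 2 overlapping NRF1 matches, 1 on each strand. Uqcrh encodes the hinge subunit of complex III and lies at chr4:116075072-116075221 on the minus strand; its capitals are the reverse complement of the GABPA letters. Both come from RefSeq on GRCm38.p6.
Cox6a1: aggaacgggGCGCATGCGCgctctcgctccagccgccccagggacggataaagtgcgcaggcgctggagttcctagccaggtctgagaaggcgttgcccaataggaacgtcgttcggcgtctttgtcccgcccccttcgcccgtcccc
Uqcrh: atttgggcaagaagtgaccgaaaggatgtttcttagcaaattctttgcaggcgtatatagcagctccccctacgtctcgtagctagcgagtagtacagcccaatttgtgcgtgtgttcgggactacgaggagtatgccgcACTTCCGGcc

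RefSeq windows of 250 bases before to 50 bases after the start were found for 67 of the 81 nuclear genes. The NRF1 letters occurred in 10 of them (14.9%), against 5.17% of 12438 tested coding genes. The YY1 letters occurred in 7 (10.4%), against 2.93%. The GABPA letters occurred in 5 (7.46%), against 7.64%, and TATAAA occurred in 6 (8.96%), against 9.95%. At least 1 of the NRF1, GABPA and YY1 motifs was in 21 windows (31.3%), against 14.7%. The median log2 change after stimulation was -0.09 with the NRF1 letters and -0.08 without, -0.06 and -0.08 for YY1, -0.12 and -0.06 for GABPA, and -0.29 and -0.06 for TATAAA. The 6 genes with TATAAA include Cox8b and Atp5l, whose means of 9.50 and 6.17 are low, so their changes are uncertain. The others are all complex I genes with far higher counts, Ndufs7 among them, and had changes of -0.30 to -0.19. A match is a description of the letters, not a shown binding site.

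The third stretch concerns mt-Co2, a core subunit of complex IV, which was listed at 0, 5 and 0 in the controls and 1, 0 and 0 after stimulation. Its transcript (chrM:7013-7696 on mm10) is matched base for base by Gm28661, an annotated nuclear copy on chromosome 1, over all 681 compared bases. Transcript bases 301 to 360 read identically in mt-Co2, in Gm28661 and in Gm13341, a further copy on chromosome 2.
mt-Co2, Gm28661 and Gm13341: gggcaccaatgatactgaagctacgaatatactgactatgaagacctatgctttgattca

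Every 50-base run of mt-Co2 (100%) occurred in a transcript of another gene. The corresponding share was 62.2% for mt-Nd4, 51.1% for mt-Co1, 8.19% for mt-Nd2 and 7.61% for mt-Nd5, and 0% for mt-Nd1, mt-Nd6 and mt-Cytb. For mt-Co2 the near-absence of counts therefore gives no level of the gene, and what part the copies have in it was not tested. Among the nuclear genes, 35 of 81 shared at least 1 such run with another gene, 11 shared over 20% and 4 over 50% of their runs. These 4 are Atp5g2 (87.4%), Atp5l (68.5%), Atp5h (66.6%) and Cox7c (53.0%), whose levels are therefore uncertain.

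The nuclear subunit genes as a group moved little after 6 h of BMP9 and BMP10. Of 81 genes, 1 rose and 0 fell by limma at a Benjamini-Hochberg adjusted p under 0.05, whereas 13.4% of 21743 genes tested were called (8.61% higher, 4.75% lower). At an unadjusted p under 0.05, 3 of the 81 were higher and 12 lower, against 3370 and 2877 of the 21743 genes tested. All 81 passed the filter on low values, a mean of at least 1. Their median log2 change was -0.07, with 58 estimates below 0 and 23 above, and the median over all genes tested was -0.03. At a mean of at least 100, the median was -0.07 for 76 members and 0.03 for 11657 coding genes. For the 2218 of those coding genes with 70 to 250 residues it was -0.002. Among the 76 members with a mean of at least 100, the 95% interval of the change lay within 1.5-fold either way in all 76, against 47.3% of the 11993 genes at that level. At that level 21.1% of genes were called. The intervals are for the values as deposited and were not computed for other scalings. With equal library totals the Ndufv3 estimate, for example, was -0.48.

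**Figure D1:**
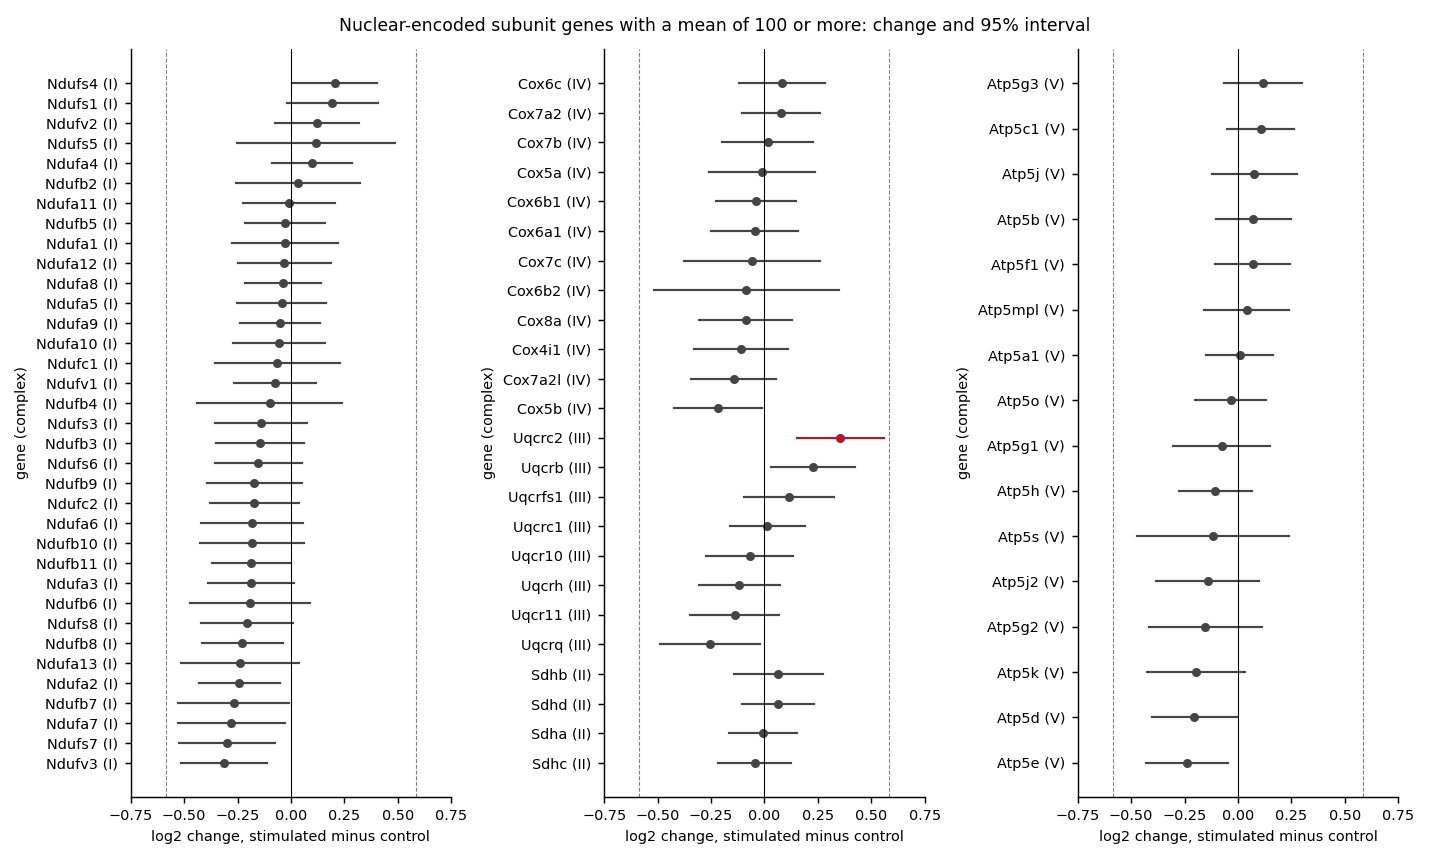
Change in 75 of the 76 nuclear-encoded subunit genes with a mean normalized read count of 100 or more, by complex; points are limma estimates of the log2 change (stimulated minus control, n = 3 each), lines are 95% intervals and dashed lines mark 1.5-fold. With the values as deposited, every interval shown lies inside the dashed lines, and of the genes shown only Uqcrc2 (red) passed the adjusted threshold.

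By separation of the groups, 6 nuclear members had all stimulated libraries above all controls and 23 had all of them below. That is 7.41% of the members above, against 17.8% of all genes, and 28.4% below, against 15.4%; over both directions it is 35.8%, against 33.2%. Across libraries, the lowest value of a nuclear gene was in stimulated replicate 3 for 38 of 81 genes, and the highest was in control replicate 1 for 32. Summed over the 81 genes, the share of the library total was 0.804% ± 0.020 (SD, n = 3) in controls and 0.697% ± 0.033 in stimulated libraries. The groups of that share did not overlap, and the library totals themselves were higher in all stimulated libraries.

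Same-numbered libraries of the 2 groups deviated together for replicates 1 and 2 (correlations of 0.747 and 0.741) but weakly for replicate 3 (0.218). A fit with the replicate number as a block called more of the genes. With the block, limma called 1 member higher and 10 lower, where 14.9% and 12% of all genes (3232 and 2605 of 21743, together 26.8%) were called in these directions. The 10 lower members are 12.3% of the 81, which is near the background. Of these 10, 7 belong to complex I, Ndufa2, Ndufa7, Ndufb7, Ndufb8, Ndufs7 and Ndufv3 among them, and Uqcrq, Cox5b and Atp5e are the others. The change was -0.31 for Ndufv3, -0.25 for Uqcrq, -0.24 for Atp5e and -0.22 for Cox5b on the log2 scale.

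Scaling the libraries to equal totals shifted the median of all genes to -0.20 and that of the nuclear members to -0.24. Under that scaling 0 members rose and 18 fell (22.2% of 81), against 5.22% and 10.4% of all genes (15.7% together). With upper-quartile factors, 0 rose and 6 fell (7.41%), against 5.92% of all genes higher and 6.66% lower (12.6% together), with medians of -0.16 for the members and -0.13 for all genes. Equal totals together with the block called 0 higher and 46 lower (56.8%), against 9.40% and 22.6% of all genes (32.0% together). Cytosolic ribosomal protein genes, another large family of abundant transcripts, had 0 rises and 29 falls among 81 (35.8%) with equal totals and 61 falls (75.3%) with the block added, shares above those of the subunit genes. The direction for the subunit genes as a whole thus stayed below 0 under these scalings, while the count of calls ran from 1 to 46.

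Complex I, the NADH dehydrogenase, had 0 of 36 nuclear members called with the values as deposited and a median log2 change of -0.14, with 30 estimates below 0. The catalytic core subunit Ndufs7, which holds an iron-sulfur cluster near the ubiquinone site, was at 1372, 1387 and 1280 in controls and 1182, 1108 and 1001 after stimulation. All 3 stimulated libraries were below all controls, a change of -0.30 ± 0.09 (SE; limma adjusted p = 0.0862, and 0.0234 with the replicate block). Ndufv3, an accessory subunit of the NADH-binding module, had the smallest p of complex I. Its values were 2626, 2582 and 2581 in controls and 2211, 2174 and 1905 after stimulation, without overlap. The change was -0.31 ± 0.09 (limma adjusted p = 0.0562, and 0.0192 with the block).

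Ndufs1, the large iron-sulfur subunit, had an estimate above 0, with values of 2989, 2601 and 2790 in controls against 3400, 2971 and 3216. Those groups overlapped, and the change of 0.19 ± 0.09 did not pass (limma adjusted p = 0.210). Of other core subunits, the change was -0.20 for Ndufs8, -0.14 for Ndufs3, -0.08 for Ndufv1, which binds FMN and NADH, and 0.12 for Ndufv2, and none passed. For Ndufs3, 35.8% of the 50-base runs occur in other genes. Ndufa4, counted here by its name, is now regarded as a complex IV subunit.

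Complex II, succinate dehydrogenase, is the complex with no mitochondrially encoded subunit and had the least movement. Sdha, the flavoprotein, was at 7220, 6824 and 6927 in controls and 7134, 6858 and 6891 after stimulation, so the groups lay within each other. Its change was -0.01 with a 95% interval of -0.16 to 0.15. The iron-sulfur subunit Sdhb stood at 0.07 (-0.14 to 0.28), and the membrane anchors Sdhc and Sdhd at -0.05 (-0.22 to 0.12) and 0.06 (-0.11 to 0.23).

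Complex III held the 1 called gene. Uqcrc2 (ENSMUSG00000030884, chr7:120635176-120659524 on mm10) encodes core protein 2, a structural subunit on the matrix side. It was at 2796, 3010 and 2600 in controls and 3420, 3781 and 3540 after stimulation, with every stimulated library above every control. The change was 0.35 ± 0.09 on the log2 scale, or 1.28-fold (limma, Benjamini-Hochberg adjusted p = 0.0388; 0.00870 with the replicate block). This call was lost without control replicate 1 or 3 or any 1 of the stimulated libraries (adjusted p 0.0604 to 0.140), and held without control replicate 2 (0.0368). With equal library totals the change was 0.18 and not called (adjusted p = 0.208), and 19.7% of the gene's exonic bases lie opposite Pdzd9.

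Its partner Uqcrc1, core protein 1, was at 3844, 3573 and 3552 in controls and 3836, 3620 and 3610 after stimulation, overlapping throughout (0.01, 95% interval -0.16 to 0.19). Uqcrb, a small subunit near the ubiquinone site, was at 1720, 1927 and 1699 against 2091, 2043 and 2118, without overlap, but 43.2% of its 50-base runs occur in other genes. Its change of 0.23 ± 0.08 did not pass (limma adjusted p = 0.121). Uqcrq, another small subunit, was at 2606, 2518 and 2304 against 2315, 1954 and 1968, with an overlap between control 3 and stimulated 1 (-0.25 ± 0.10; adjusted p = 0.144, and 0.0361 with the block). The Rieske iron-sulfur protein Uqcrfs1 stood at 0.12 and was not called.

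Complex IV, cytochrome c oxidase, had 0 of 16 nuclear members called and a median of -0.05. Cox5b, a core-associated subunit, was at 2766, 2661 and 2534 in controls and 2403, 2358 and 2090 after stimulation, without overlap (-0.22 ± 0.09; limma adjusted p = 0.151, and 0.0441 with the block). Of the 50-base runs of Cox5b, 25.9% occur in another gene. Cox5a, the counterpart of Cox5b, was at 1665, 1485 and 1483 against 1706, 1502 and 1392, with full overlap (-0.01).

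Several complex IV subunits exist as a widely expressed form and a form of heart, skeletal muscle, lung or testis, and the widely expressed form dominated in every library. Per kb of exon, Cox4i1 was 48.5 to 336 times the lung and oxygen-responsive form Cox4i2, Cox6a1 was 45.6 to 100.5 times the muscle form Cox6a2, and Cox7a2 was 38.0 to 53.5 times the muscle form Cox7a1. Cox6b1 was 44.0 to 66.9 times the testis form Cox6b2. Cox4i2 was at 14, 85 and 23 in controls and 30, 64 and 32 after stimulation, so replicate 2 was highest in both groups, as it was for the summed endothelial, epithelial, mesothelial, fibroblast and smooth muscle markers, and the groups overlapped. The change was 0.37 ± 0.66.

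The muscle form Cox8b was at 13, 15 and 15 in controls and 7, 1 and 6 after stimulation, with no overlap. Its change of -1.67 ± 0.58 rests on few reads and did not pass (limma adjusted p = 0.109). Cox6a2 was at 67, 77 and 57 in controls against 57, 38 and 40, where control 3 equals stimulated 1 (-0.58 ± 0.25; limma adjusted p = 0.178). Cox7a1 was at 30, 43 and 38 against 45, 36 and 30, overlapping fully. The low forms thus did not share a direction in their estimates, and none was called.

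**Figure D2:**
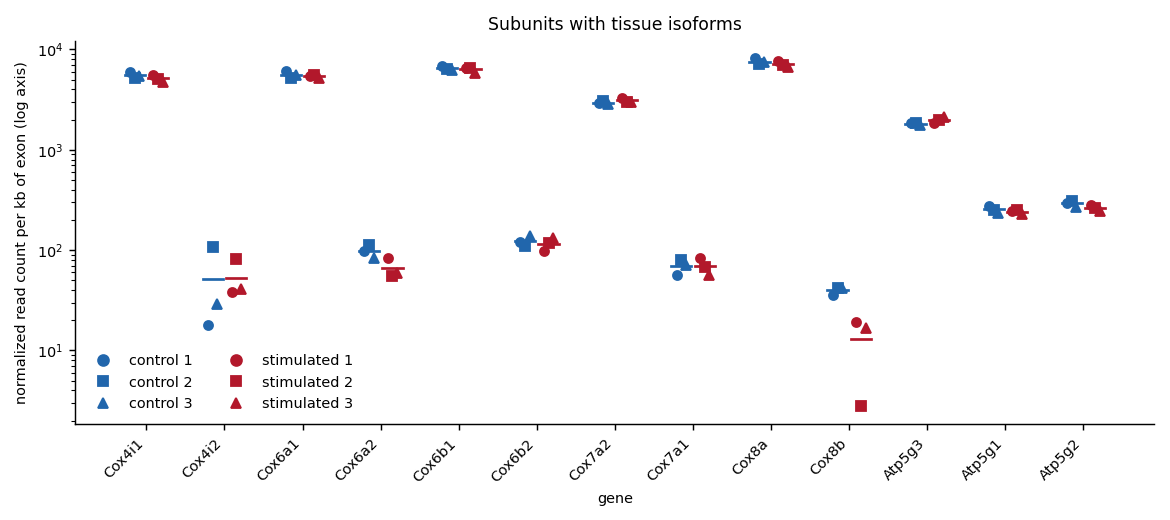
Normalized read count per kb of exon on a log axis for subunits with several gene forms; symbols are libraries by replicate number, blue control and red stimulated, and short lines are group means (n = 3). The 5 widely expressed complex IV forms stand far above their tissue forms in all 6 libraries, and Cox8b shows the lowest value of all, in stimulated replicate 2.

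ATP synthase had 0 of 17 members called and a median of -0.08. Per kb of exon, Atp5b had the highest control level of the complex at 5826, below Cox8a of complex IV at 7574, the highest of the nuclear members. Atp5b, the beta subunit, was at 25956, 23595 and 24507 in controls and 25789, 26842 and 25130 after stimulation, with overlap (0.07, 95% interval -0.11 to 0.25). Atp5a1, the alpha subunit, was at 18036, 17045 and 17211 against 17388, 17712 and 17440, also overlapping (0.01, -0.15 to 0.17). Atp5c1, the gamma subunit of the rotor shaft, was at 5693, 5439 and 5538 against 6097, 5830 and 6008, where the groups separate by a small step (0.11 ± 0.07; limma adjusted p = 0.355).

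The other 2 rotor shaft subunits had estimates below 0. Atp5e (epsilon) was at 2403, 2494 and 2319 against 2112, 2112 and 1900, without overlap (-0.24 ± 0.08; limma adjusted p = 0.105, and 0.0341 with the block). Atp5d (delta) was at 4030, 3672 and 4035 against 3653, 3242 and 3287, also without overlap (-0.21 ± 0.08; adjusted p = 0.160, and 0.0558 with the block). The 3 genes for the identical c-ring subunit were uneven in level, Atp5g3 at 1782 to 2110 normalized reads per kb of exon, Atp5g1 at 227 to 277 and Atp5g2 at 246 to 312, and none was called. Atp5l was listed at 2 to 13.

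Apart from mt-Co2, the mitochondrially encoded genes had control levels of 26894 (mt-Nd4) to 87749 (mt-Co1) normalized reads per kb of exon, each above the highest nuclear member, Cox8a at 7574. The levels of mt-Nd4 and mt-Co1 are uncertain, since 62.2% and 51.1% of their 50-base runs occur in other genes. Of the 8, 0 were called by limma (13.4% of all genes were), 0 had an unadjusted p under 0.05, and 0 had groups that did not overlap. The 7 without mt-Co2 had log2 estimates of 0.08 to 0.23, with a median of 0.17. Over all 8 the median, also 0.17, moved to 0.04 without stimulated replicate 3, 0.05 without control replicate 2 and 0.26 without stimulated replicate 1, and to 0.08 with upper-quartile factors and 0.29 with array weights. The 7 are subunits of complex I (mt-Nd1, mt-Nd2, mt-Nd4, mt-Nd5, mt-Nd6), complex III (mt-Cytb) and complex IV (mt-Co1). The ATP synthase genes of the mitochondrial genome, mt-Atp6 and mt-Atp8, and mt-Co3, mt-Nd3 and mt-Nd4l have no row among the 21785 genes. The mitochondrial sums and ratios given here therefore leave them out. The share of their 50-base runs found in other genes was 99.5% for mt-Atp6, 99.9% for mt-Co3, 98.0% for mt-Nd3, 98.8% for mt-Nd4l and 0% for mt-Atp8. What part this has in their absence was not tested.

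The catalytic subunit mt-Co1 was at 131900, 126555 and 148260 in controls and 124879, 156658 and 199416 after stimulation. Stimulated replicate 3 was the highest library and stimulated replicate 1 the lowest (0.22 ± 0.17; limma adjusted p = 0.463). Cytochrome b, mt-Cytb, was at 84959, 72447 and 90489 against 85545, 92827 and 114094, overlapping in stimulated replicate 1 (0.23 ± 0.14; adjusted p = 0.320). mt-Nd1 was at 53754, 41489 and 57328 against 48833, 45742 and 67347, overlapping as well (0.08 ± 0.18).

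Stimulated replicate 3 was highest for 7 of these 7 genes and control replicate 2 lowest for 6. Summed, the mitochondrial genes took 1.47% ± 0.154 (SD, n = 3) of the library total in controls and 1.49% ± 0.265 after stimulation. Relative to the nuclear members the sum was 1.80, 1.62 and 2.06 times in controls and 1.78, 2.01 and 2.68 times after stimulation, so the groups overlapped and stimulated replicate 3 stood highest. With equal library totals the median change of the 8 genes was -0.000534, so the small positive estimate depends on the scaling. The mitochondrial ribosomal RNA mt-Rnr1 was at 7529, 5094 and 8053 against 6352, 4947 and 7452, and it was not called (-0.13 ± 0.21).

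**Figure D3:**
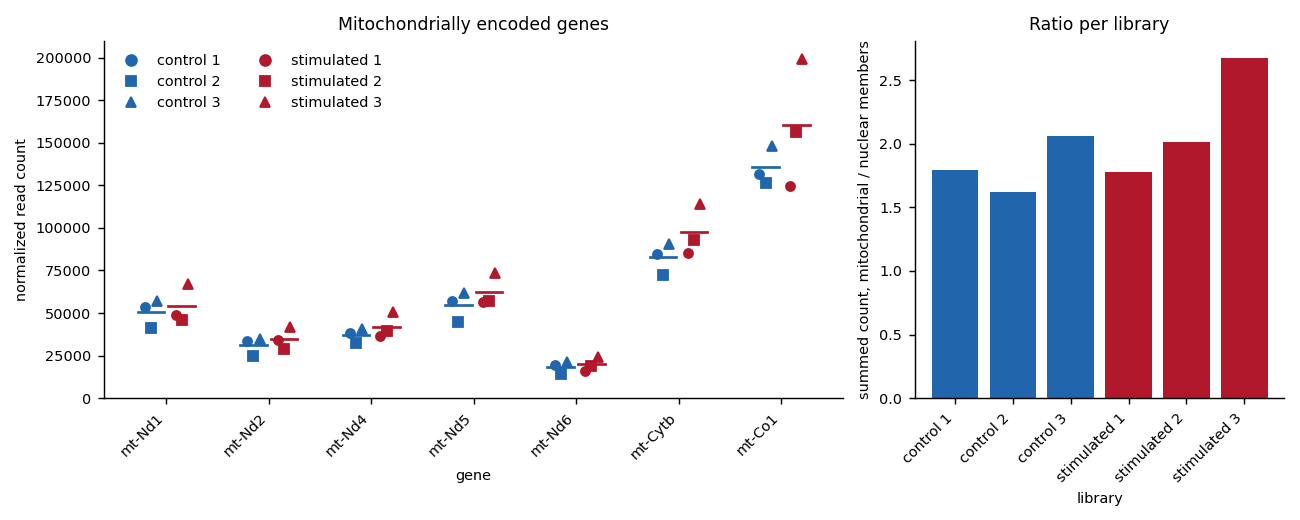
Left, normalized read counts of the 7 mitochondrially encoded genes with reads, per library, with group means as short lines; right, their sum with mt-Co2 over the sum of the 81 nuclear members. Stimulated replicate 3 (red triangle) is the highest library for each gene and has the highest ratio, 2.68, while the other stimulated libraries lie among or near the controls.

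Base composition varied with the change among the nuclear members. Over the 76 with a mean of at least 100, the change and the GC content of the principal transcript had a Spearman correlation of -0.53 and a Pearson correlation of -0.55, as a description across genes that share libraries. Over 11657 coding genes at that level the values were -0.25 and -0.16. Within pairs 1, 2 and 3 the Spearman value for the members was -0.50, -0.33 and -0.49. Of the 38 members at or below the median GC content of 51.7%, 17 had estimates above 0 and 21 below (median -0.02). Of the 38 above it, 5 were above 0 and 33 below (median -0.15). Uqcrc2 is at 44.4% GC, while Ndufs7 is at 59.6% and Ndufb7, a complex I accessory subunit, at 59.7%. The part of base composition in the changes was not tested.

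**Figure D4:**
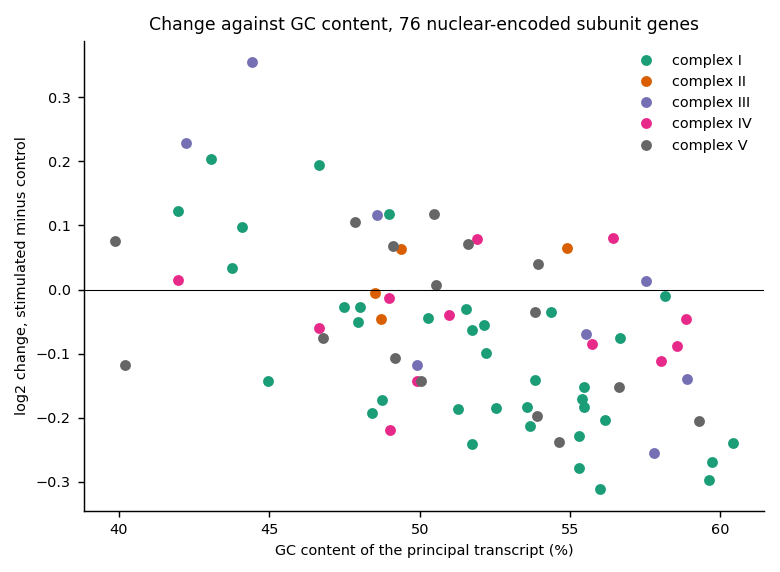
Log2 change (stimulated minus control) against GC content of the principal transcript in percent for the 76 nuclear-encoded subunit genes with a mean of 100 or more, coloured by complex. Genes with estimates above 0 lie mostly at lower GC content, and the highest point, Uqcrc2, is at 44.4%.

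Lists of genes that act around the subunits, made with results of these data known, had these calls. Among 19 regulators of mitochondrial biogenesis, 3 rose (Pprc1, Myc and Gabpb1) and 2 fell (Ppargc1a and Nfe2l2); that is 26.3% called, against 13.4% of all genes. The list's median log2 change was 0.13, and with equal library totals it was -0.05, with 3 higher and 4 lower. Ppargc1a, the coactivator PGC-1alpha that promotes mitochondrial gene expression, was at 109, 75 and 102 in controls and 24, 19 and 23 after stimulation. Every stimulated library was below every control, and the gene fell by 2.06 ± 0.24 on the log2 scale (limma adjusted p = 0.00354).

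Pprc1, a related coactivator (PRC) known as an early-response gene, was at 1425, 1437 and 1427 in controls and 2895, 3366 and 2973 after stimulation. The groups were far apart, and it rose by 1.10 ± 0.09 (limma adjusted p = 0.000896). Myc, a transcription factor of growth, was at 750, 904 and 734 against 1463, 2048 and 1769, again without overlap, and rose by 1.14 ± 0.15 (adjusted p = 0.00492). Gabpb1, a subunit of the factor whose motif is shown above for Uqcrh, and Nfe2l2, a regulator of antioxidant genes, were singled out after their values were seen. Gabpb1 rose by 0.75 ± 0.13 and Nfe2l2 fell by 0.48 ± 0.11 on the log2 scale. The genes for the other motif-binding factors, Nrf1 at 0.40, Yy1 at 0.14 and Gabpa at 0.24, also chosen after their values were seen, did not pass.

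Assembly factors bring subunits together without staying in the complex. For complex I, 1 of 16 rose and 0 fell, which is 6.25% called, against 13.4% of all genes. Ndufaf4 was at 297, 348 and 333 in controls and 479, 493 and 557 after stimulation, without overlap (0.64 ± 0.12, limma adjusted p = 0.0159). For complexes II and III, 1 of 10 rose and 2 fell (30% called). Ttc19, which is needed for complex III maturation, was at 648, 686 and 731 against 1024, 1162 and 1264 (0.74 ± 0.11; adjusted p = 0.00757). Uqcc3 was at 757, 679 and 723 against 492, 431 and 377 and fell by 0.74 ± 0.13, and Uqcc2, which takes part in making cytochrome b, fell by 0.39 ± 0.10. Each of these 4 genes had separate groups, so assembly factors of complex III stood on both sides of 0.

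For complex IV, 0 of 22 assembly factors were called, with Higd1a at 0.30 ± 0.08 (limma adjusted p = 0.0603); the median was -0.09, with 15 of 22 estimates below 0. With the block 2 rose (9.09%, against 14.9% of all genes). With equal library totals 3 fell (13.6%, against 10.4%), and with both 7 fell (31.8%, against 22.6%). Of 4 genes for ATP synthase assembly or inhibition 0 were called, and the inhibitor Atpif1 stood at -0.27 ± 0.10 (adjusted p = 0.133; with the block 1 of the 4 was called lower). Among 22 further subunits and electron carriers, 0 rose and 2 fell (9.09% called, against 13.4% of all genes). Coq9, which acts in ubiquinone synthesis, was at 1124, 1058 and 1058 against 823, 848 and 830 and fell by 0.37 ± 0.08. The other is Aox1, an aldehyde oxidase of the cytosol and no part of the chain, which fell by 0.74 ± 0.16.

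In the TCA cycle and pyruvate entry, which supply electrons to the chain, 1 of 27 genes rose and 2 fell. That is 11.1% called, against 13.4% of all genes. Idh3a, a subunit of the NAD-dependent isocitrate dehydrogenase, was at 1747, 1491 and 1789 against 2641, 2605 and 2766 and rose by 0.68 ± 0.09 (limma adjusted p = 0.00633). The 2 that fell act on pyruvate dehydrogenase in opposite ways. Pdk2, a kinase that inhibits it, was at 885, 815 and 766 against 533, 435 and 478 (-0.77 ± 0.12; adjusted p = 0.00767). Pdp1, a phosphatase that activates it, was at 1124, 881 and 1053 against 557, 528 and 583 (-0.87 ± 0.12; adjusted p = 0.00568). The groups of all 3 genes were separate.

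Of 24 genes for protein import and the inner membrane, 5 rose (20.8%, against 8.61% of all genes) and 0 fell, and the median was 0.15. Timm22, the carrier translocase channel, was at 908, 837 and 833 against 1627, 1271 and 1587 (0.79 ± 0.12; limma adjusted p = 0.00754). The outer membrane receptor Tomm70a rose by 0.64 ± 0.13 and the inner membrane translocase subunit Timm17a by 0.58 ± 0.11. The other two were Timm23, also a translocase subunit, and the fusion protein Opa1, named after their values were seen. With equal library totals 3 of the 24 were called higher, where 5.22% of all genes were, and the median of the list was -0.03.

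Genes that maintain and express the mitochondrial genome follow. Among 18 genes of mitochondrial RNA processing, 2 rose and 0 fell, Fastkd5 by 0.56 ± 0.11 and Trmt10c, part of mitochondrial RNase P, by 0.47 ± 0.10; with equal library totals neither was called (limma adjusted p = 0.0643 and 0.0877). Under that scaling 2 others of the list, Hsd17b10 and Ptcd1, named after their values were seen, were called lower. The 2 calls are 11.1% of the list, against 13.4% of all genes; with the replicate block 7 of the 18 rose (38.9%, against 14.9%), and with both the block and equal totals 2 rose and 2 fell. Among 21 genes of mitochondrial DNA replication and transcription, 0 were called, with Rnaseh1 at 0.34 ± 0.10 (adjusted p = 0.0732; 2 rose and 1 fell with the block). The mitochondrial ribosomal proteins had 3 of 77 higher (3.90%, against 8.61% of all genes) and 0 lower, led by Mrpl47 (0.53 ± 0.10). The cytosolic ribosomal proteins had 0 of 81 higher and 1 lower (1.23%, against 4.75% of all genes), Rpl41, which fell by 0.50 ± 0.12. With equal library totals the mitochondrial ribosomal proteins had 1 higher and 4 lower (5.19% lower, against 10.4% of all genes). With the block added they had 1 higher and 23 lower (29.9% lower, against 22.6%). Of 13 fusion, fission and turnover genes 0 were called, with Mff at 0.25 ± 0.08. Of 10 uncoupling and antioxidant genes 1 fell: the carrier Slc25a27, by 1.62 ± 0.30.

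Leaving out each library in turn, 8 of the 26 called genes of these lists were called in all 6 fits: Ppargc1a, Pprc1, Myc, Ttc19, Timm22, Idh3a, Pdk2 and Pdp1. The other 18 lost the call in at least 1 fit, and the number of called genes ran from 8 to 22. It was lowest without stimulated replicate 3 (8), without control replicate 3 (9) and without control replicate 1 (10).

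**Figure D5:**
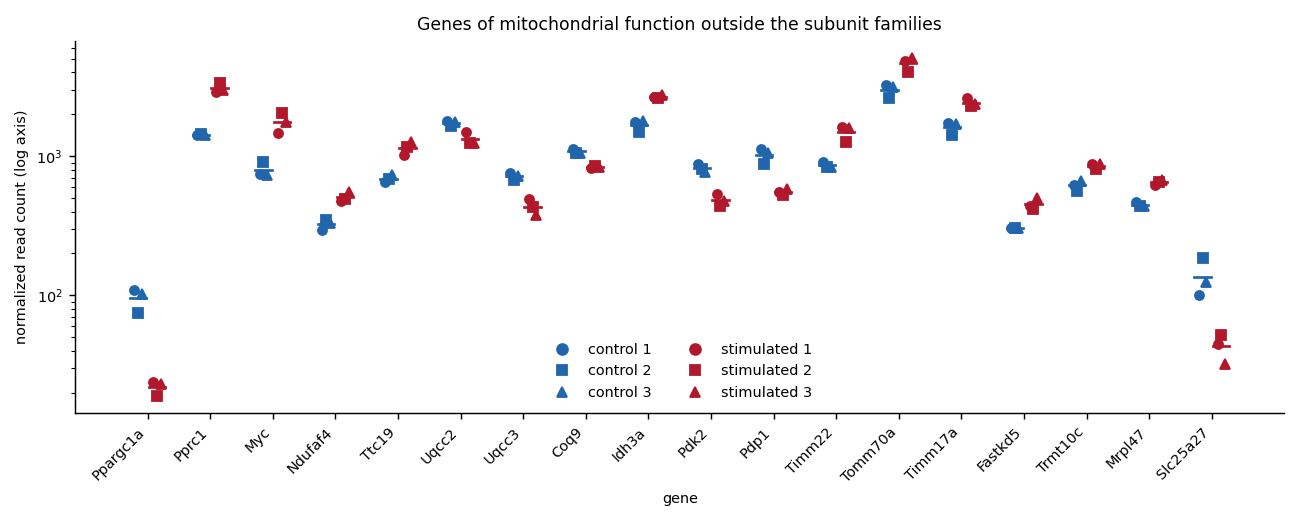
Normalized read counts on a log axis of 18 genes of mitochondrial function outside the subunit families, per library (blue control, red stimulated, symbols by replicate number, short lines for group means, n = 3). The groups are separate for each gene shown, with Ppargc1a at 75 to 109 in controls and 19 to 24 after stimulation.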

How the data were processed

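STAR 2.6.1d and featureCounts 1.6.3 after Trimmomatic 0.38 and FastQC, then DESeq2 1.18.1, with mm10 among the builds, are what the labels list per the submitters' processing notes. Parameters, annotation release and strand setting: not given in the sources used here. Genes that overlap on opposite strands are therefore uncertain. The values the authors deposited are a score: judged by their steps, whole reads scaled within each library by a constant, then rounded. From skipped numbers, the factor was 1.07 in control 1 and 1.03 in control 3 and 1.32, 1.14 and 0.584 in stimulated 1 to 3, giving an estimated 23.3 (stimulated 1) to 54.3 (stimulated 3) x 1e6 reads; that of control 2 could not be settled. Reads were not recovered, so no count model was used.

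Symbols came from GENCODE M21 (mm10), matching 21747 of 21785 identifiers. Genes with a mean of at least 1 (21743) were tested as log2(value + 1) by limma 3.58.1 (R 4.3.3) with an intensity trend, 3 controls against 3 stimulated samples, with Benjamini-Hochberg adjustment at 0.05 over all genes; fold changes are on that log2 scale, which understates low genes. On simulated data at this size, with the same added spread for every gene, changes of 1 and 2 on the log2 scale were recovered for all 200 changed genes. Smaller changes were not simulated. The nuclear members with a mean of at least 100 changed by -0.31 to 0.35, so the simulation does not tell how often changes of that size are called. The 38 identifiers without a symbol could not be members. Per kb levels use the union of exons. The labels give no pairing. Deviations from group means of same-numbered libraries correlated by 0.747, 0.741 and 0.218 over 13185 genes. Control 3 correlated more with stimulated 1 (0.287) than with stimulated 3 (0.218), so the third pair is doubtful. Over 77 nuclear members the same-numbered values were only 0.305, 0.126 and 0.378. The numbers are treated as pairs in an added fit with the replicate block, whose p-values rest on this pairing. Alternatives were equal totals (also without the mitochondrial genes), upper-quartile, TMM and RLE factors, pseudocounts of 0.1 and 5, other filters, no trend, array weights and leaving out libraries.

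Members and lists were chosen with earlier results of these data known. Genes were named by rule: called members, the 2 smallest p per complex, the catalytic core, subunits with tissue forms, mitochondrial genes, up to 3 called genes per other list, and the extremes of level; Ndufa7, Ndufb7, Ndufb8 and others in counts of calls were added after their values were seen. S6 kinase genes were taken out of the ribosomal list after the calls were seen. Python 3.11.15 with pandas 2.3.3 and matplotlib 3.10.9 was used for sequences and plots. For 1 member, single-gene values are not reported here.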

Additional observations from a re-analysis of the deposited data

How the results depend on the processing

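The limits are the number of libraries (3 against 3), the scaling and the spread of the deposited values. The calls among nuclear genes, 1 with the values as deposited, were 18 with equal totals, 18 with equal totals computed without the mitochondrial genes, 6 with upper-quartile factors, 2 with a filter at 1 CPM, 0 without the trend, 35 with array weights (7 higher, 28 lower), 11 with the replicate block and 46 with the block and equal totals; leaving out 1 library gave 0 to 1. Their median was -0.24 with equal totals, with or without the mitochondrial genes or the block, and -0.16 with upper-quartile factors. TMM and RLE factors left the calls and the medians near the values reported. Array weights raised the calls over all genes as well, to 8514 of 21743 (4423 higher, 4091 lower). Against that background stand 35 of 81 nuclear members and 3 of 8 mitochondrial genes under the same setting. The mitochondrial genes had 3 calls, all higher, with array weights, and their median was -0.000534 with equal totals, -0.000135 with totals without those genes, and -0.000534 with the block and equal totals, opposite in sign to 0.17. Over all genes, 2905 calls became 1610 without the trend, 8514 with array weights, 5837 with the replicate block, 6958 with the block and equal totals, and 917 to 2384 without 1 library. The 26 calls in the other lists became 65 (equal totals), 67 (totals without mitochondrial genes), 15 (no trend), 152 (array weights), 73 (block) and 151 (block and equal totals), and 8 to 22 without 1 library. With equal totals 18 of the 23 nuclear estimates above 0 turned below 0; with the block added, Atp5a1, one of them, was called lower at -0.17 (limma adjusted p = 0.0498). The cause of these shifts was not tested, beyond fewer samples where libraries were left out.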
